A study of Mus musculus with 8 samples.

Results

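Lmx1a and Lmx1b are the 2 genes of the Lmx1 subfamily of LIM homeobox genes. They were chosen by gene symbol and are 2 of the 23420 genes measured. The study compared 2 regions of head mesenchyme at E12.5, in embryos of the wild type mouse strain C57BL/6, taken either from the early migrating mesenchyme (EMM) or from the supraorbital mesenchyme above the eye (SOM). Each region was represented by 4 RNA-seq libraries, and each library by tissue of 4 to 5 embryos combined. Surface ectoderm and brain had been taken off after dispase treatment, so the samples were bulk mesenchyme with whatever vessels, blood and nerve it held. In bulk tissue, fewer cells of a type and less RNA per cell cannot be told apart. The libraries held 12703844 to 22440232 gene-assigned reads in EMM and 16765416 to 33694331 in SOM.

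LIM homeodomain proteins are transcription factors that carry LIM domains, which bind partner proteins, ahead of a DNA-binding homeodomain. The cofactor LDB1 joins them into larger complexes, LMO proteins compete for LDB1, and SSBP proteins protect it from breakdown. LMX1B sets dorsal identity in the limb, is needed in kidney podocytes, in the front of the eye and in several brain nuclei, and has been described as holding back bone formation in head mesenchyme. LMX1A is best known from the roof plate, the inner ear and the midbrain floor, where it acts together with LMX1B.

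All levels below are normalized counts, which are reads divided by a size factor for each library. Differences are SOM minus EMM on the log2(normalized count + 1) scale, from limma with Benjamini-Hochberg adjustment over 14249 genes, called at 0.05. On that scale the change of genes with low values is understated. Nothing in the labels ties libraries to separate litters, so p-values measure the spread between these pools.

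Lmx1b lies on the minus strand of chromosome 2 from 33560965 to 33640511 and Lmx1a on the plus strand of chromosome 1 from 167689237 to 167848741 (GRCm38, GENCODE M21). The annotation places no exonic bases of any other gene on those of Lmx1a or Lmx1b. Just upstream of Lmx1b, the long non-coding RNA gene C130021I20Rik runs the other way, on the plus strand from 33641193 to 33646354. In RefSeq (GRCm38.p6) the Lmx1b model reaches further upstream and overlaps the start of C130021I20Rik by 16 bases. The 170 bases around this point, chr2:33641179-33641348, are shown on the Lmx1b strand because the pair is transcribed outward from here, with the 16 shared bases in capitals.
Lmx1b: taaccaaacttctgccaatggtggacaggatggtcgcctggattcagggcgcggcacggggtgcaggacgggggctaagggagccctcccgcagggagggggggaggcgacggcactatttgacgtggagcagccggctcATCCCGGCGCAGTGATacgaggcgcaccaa
RefSeq promoter windows ran from 250 bases before to 50 after a start. For Lmx1b the window used a start at 33641098, not the far end of the longer model that overlaps C130021I20Rik. From that start to the start of C130021I20Rik there were 95 bases. The windows of Lmx1b and C130021I20Rik shared 194 bases. They held 24 and 34 CpG dinucleotides, against 12 in that of Lmx1a and a median of 7 over 32817 windows. None of the windows of Lmx1a, Lmx1b and C130021I20Rik held TAATTA (a core bound by LIM homeodomains), CTTTGA (a core of TCF/LEF sites) or CAGATG (an E-box form) on either strand. Those letters occurred in 5.30%, 16% and 17.2% of all windows.

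Lmx1b was abundant in every EMM library and low in every SOM library. EMM replicates 1 to 4 stood at 1081, 1119, 1168 and 1146 normalized counts, and SOM replicates 1 to 4 at 115, 105.0, 142 and 152. The groups did not overlap, and the lowest EMM library was several times the highest SOM library. The means were 1128 ± 37.2 (SD, n = 4) in EMM and 128 ± 22.2 (SD, n = 4) in SOM, an 8.79-fold ratio. The log2 difference was -3.14 (SE 0.10, limma adjusted p = 4.83e-13), and it lay between -3.23 and -2.99 over all 19 alternative fits. At the same threshold 36.1% of all genes tested were called higher in EMM and 36% higher in SOM. By overlap alone, 33.2% were higher in EMM without overlap, 32.9% higher in SOM without overlap, and 66.1% did not overlap in either direction. Only 0.793% of tested genes had a difference as far toward EMM as Lmx1b, which stood at place 113 of 14249. In the authors' deposited table the log2 fold change of EMM over SOM was 3.09 (SE 0.10). Between 91 and 227 reads lay behind each SOM value and 619 to 1117 behind each EMM value.

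The divergent transcript C130021I20Rik followed Lmx1b. Its EMM libraries held 6521, 6897, 6704 and 6922 normalized counts and its SOM libraries 701, 807, 880 and 863. Again no library of a group reached the other group. The difference was -3.06 (SE 0.06, limma adjusted p = 2.18e-15), and the authors' deposited table gives a log2 fold change of 3.04. For each normalized count of Lmx1b there were 5.74 to 6.16 of C130021I20Rik in EMM libraries and 5.67 to 7.63 in SOM libraries, so the ratio of the pair overlapped between the regions. Per kilobase of exon, C130021I20Rik stood at 1633 ± 45.3 in EMM, against 231 ± 7.63 for Lmx1b (SD, n = 4 each). The strand setting of the authors' counting was not given in the sources used here, so that reads from the bases shared by the pair could not be assigned with certainty.

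Lmx1a was also higher in EMM, but its EMM libraries were spread widely. EMM replicates 1 to 4 stood at 149, 266, 423 and 176 normalized counts, and SOM replicates 1 to 4 at 78.1, 83.3, 84.9 and 87.5. The groups did not overlap. EMM replicate 3 was the highest, while the SOM libraries lay close together. The means were 254 ± 124 (SD, n = 4) and 83.4 ± 3.97 (SD, n = 4), a 3.04-fold ratio. The log2 difference was -1.47 (SE 0.29, limma adjusted p = 0.00179), place 868 of 14249 toward EMM. It was -1.19 without EMM replicate 3, and -0.95 (limma adjusted p = 4.56e-05) without EMM replicates 2 and 3 together, a choice made after seeing the data. With the level of red blood cell markers, also chosen after seeing the data, as a covariate it was -0.17 and was not called. Between 62 and 133 reads lay behind each SOM value and 131 to 405 behind each EMM value. For a single gene, the exact 2-sided permutation test gave p = 0.0286 for Lmx1a and for Lmx1b, the smallest value that 4 against 4 can give.

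**Figure D1:**
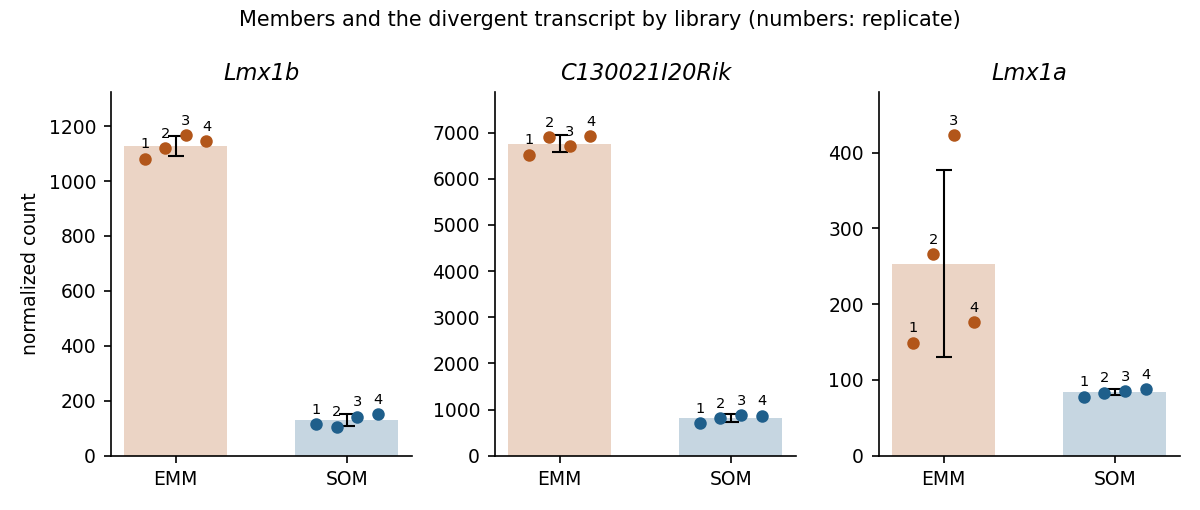
Normalized counts (linear axes from 0) of Lmx1b, C130021I20Rik and Lmx1a in the 4 EMM and 4 SOM libraries. Bars are means, whiskers are SD, and points are libraries numbered by replicate. Lmx1b and C130021I20Rik are tight within each region, while Lmx1a runs from 149 to 423 in EMM.

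Several of the genes whose profile over the 8 libraries was most like that of Lmx1a were genes of red blood cells. Likeness was the root mean square distance between log2 profiles, each centred on its own mean, over 14248 other genes tested. The 8 nearest were Acp5, Hbb-y, Hba-x, Ermap, Alas2, 1300017J02Rik, Gfi1b and Cldn13, at distances of 0.11 to 0.13 and with Pearson r from 0.990 to 0.995 over 8 libraries. Hbb-y and Hba-x encode embryonic globins, Alas2 the heme synthesis enzyme of red cell precursors, Ermap a membrane protein of red cells, and Gfi1b a transcription factor of the red cell and platelet lineages. Acp5, the nearest, encodes the tartrate-resistant acid phosphatase of osteoclasts and macrophages. These correlations are descriptions, since the points share library, region and blood content.

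Alas2 shows the parallel in single values. It stood at 1582, 2877, 4230 and 2239 normalized counts in EMM replicates 1 to 4 and at 763, 821, 954 and 905 in SOM replicates 1 to 4. For every 1000 normalized counts of Alas2 there were 94.3, 92.3, 100.1 and 78.8 of Lmx1a in the EMM libraries and 102, 101, 89.0 and 96.7 in the SOM libraries. The ratio of Lmx1a to Alas2 therefore overlapped between the regions, although each gene alone did not. The ratio of Lmx1b to Alas2 did not overlap, with 276 to 683 in EMM and 128 to 168 in SOM. Per 1000 normalized counts of Hbb-y, Lmx1a came to 1.39 to 1.69 in EMM and 1.26 to 1.47 in SOM. Alas2 and Hbb-y were among the 8 genes nearest to Lmx1a, so steady and overlapping ratios follow from that choice. The contrast with Lmx1b follows from it too, and these ratios are descriptions. Per 1000 normalized counts of Gata1, Lmx1a varied more, from 2166 to 3476 in EMM and from 1797 to 4133 in SOM. The plot of each member against Alas2 shows these values.

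**Figure D2:**
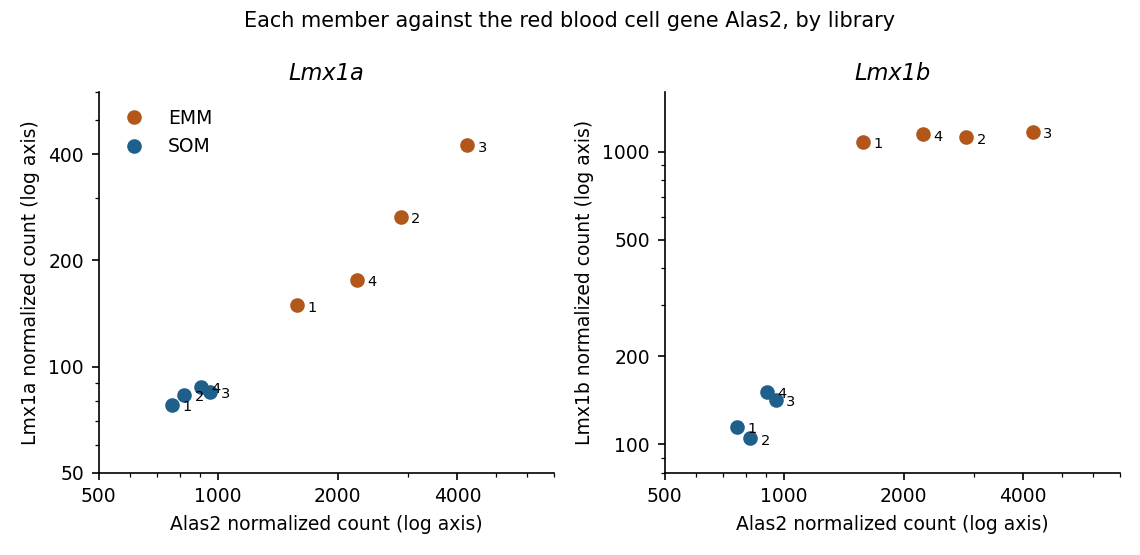
Normalized counts of Lmx1a (left) and Lmx1b (right) against Alas2 in the same library, on log axes, with each point a library numbered by replicate. Over the 4 EMM libraries Lmx1a climbs with Alas2, from 149 to 423. In SOM, Lmx1a lies between 78.1 and 87.5 over a range of Alas2 from 763 to 954. Lmx1b stays between 1081 and 1168 in EMM over a range of Alas2 from 1582 to 4230.

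A list of 16 red blood cell markers was drawn up after these values were seen, so its values are a description. Of these, 13 passed the filter on low values and 3 were at 0 in every library. Among the 13 that passed, 8 were within the 50 genes most like Lmx1a, and the least alike stood at place 2517 of 14248. The summed level of the markers ran from 153492 to 428089 in EMM and from 82353 to 100057 in SOM, highest in EMM replicate 3. Hemoglobin genes took 0.628%, 1.12%, 1.76% and 0.784% of reads in EMM replicates 1 to 4 and 0.368% to 0.433% in SOM.

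With the mean log2 level of the 13 markers as a covariate, added after seeing the data, the Lmx1a difference was -0.17 (SE 0.22, 95% interval -0.64 to 0.30) and the Lmx1b difference -2.99 (SE 0.20). The markers were listed after red cell genes had been seen to follow Lmx1a in these same libraries, so the fit describes that likeness and is no independent test of it. The marker level ran from 9.84 to 11.57 in EMM and from 8.81 to 9.27 in SOM on the log2 scale. It did not overlap between the regions either, so region and red cell content can be told apart only in part. What red blood cells contributed to the Lmx1a reads was not tested.

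The pair therefore changed by unequal factors. Per library, the ratio of Lmx1b to Lmx1a was 7.2, 4.2, 2.75 and 6.47 in EMM and 1.46, 1.26, 1.67 and 1.72 in SOM. The mean log2 ratio was 2.27 ± 0.63 in EMM and 0.60 ± 0.21 in SOM (SD, n = 4 each). Its difference, SOM minus EMM, was -1.67 (exact 2-sided permutation p = 0.0286, the smallest the design allows), with the ratio higher in all 4 EMM libraries. With any library left out it stayed at -1.94 to -1.47 (exact permutation p = 0.0571, the smallest that 4 against 3 can give). Size factors nearly cancel within a library, so this comparison does not rest on the scaling.

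Lmx1b was the leading LIM homeodomain transcript of the EMM when levels were compared per kilobase of exon. In EMM it stood at 231 ± 7.63 normalized counts per kilobase, followed by Lhx6 at 109.8 ± 9.78, Lmx1a at 74.7 ± 36.4 and Lhx2 at 19.0 ± 12 (SD, n = 4 each). Lhx6 and Lmx1a did not differ beyond their spread, since Lmx1a exceeded Lhx6 in EMM replicate 3. In SOM the top of the order was level, with Lhx6 at 27.1 ± 3.56, Lmx1b at 26.3 ± 4.54 and Lmx1a at 24.6 ± 1.17, which did not differ beyond their spread. Below them came Isl2 at 9.84 ± 2.58, Lhx8 at 5.52 ± 1.49, Isl1 at 3.48 ± 1.27 and Lhx2 at 2.03 ± 0.59. The 12 genes of the family summed to 436 ± 29.0 per kilobase in EMM and 99.3 ± 8.22 in SOM.

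As a share of that sum, Lmx1b made up 53.2% ± 2.64 in EMM and 26.4% ± 2.84 in SOM. Lmx1a made up 16.8% ± 6.98 in EMM and 24.8% ± 1.10 in SOM, with EMM replicate 3 at 26.2%. The share of Lmx1a thus overlapped between the regions, and that of Lmx1b did not.

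**Figure D3:**
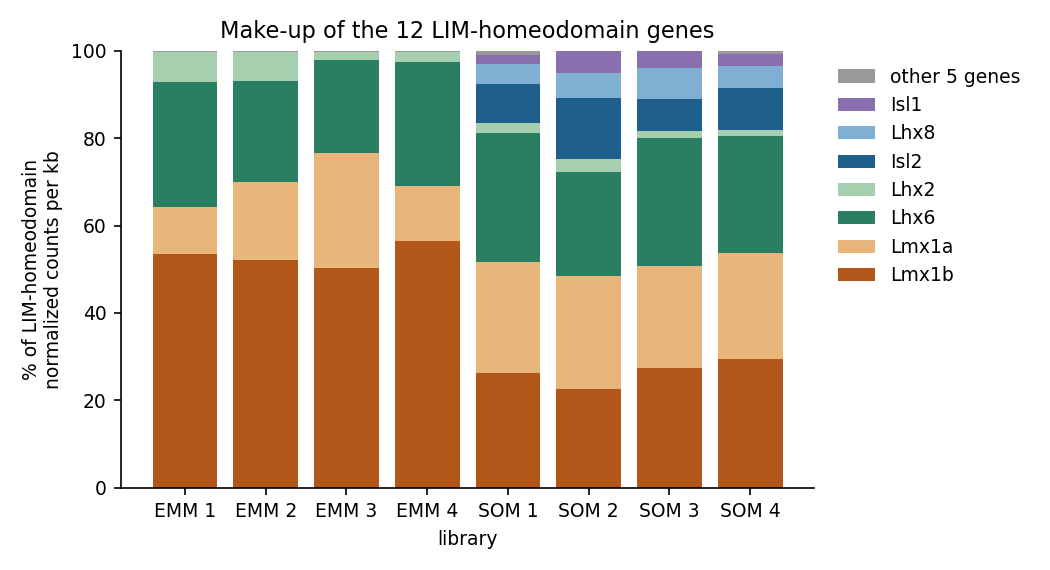
Share of each LIM homeodomain gene in the family's summed normalized counts per kilobase of exon, one stacked bar per library. Lmx1b takes 50.3% to 56.6% in the EMM libraries and 22.6% to 29.4% in the SOM libraries, where Isl2, Lhx8 and Isl1 appear.

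Of the 10 other LIM homeodomain genes, 4 passed the filter, of which Lhx2 and Lhx6 were higher in EMM and Lhx8 and Isl2 in SOM. Among all genes tested, 72.1% were called in either direction. Lhx8 and Isl2 reached 10 normalized counts in SOM libraries alone, so they passed through the region where they were high and had to differ. Lhx2 reached 10 in all 4 EMM libraries and 1 SOM library, so it passed mainly through EMM. With any 1 of the SOM libraries left out, the count higher in SOM was 0, since Lhx8 and Isl2 then missed the filter. Lhx6, a factor of the jaw and palate mesenchyme and of cortical interneurons, stood at 527 ± 47.0 in EMM and 130.1 ± 17.1 in SOM, with a difference of -2.02 (SE 0.10, limma adjusted p = 7.24e-11). Lhx2, a factor of forebrain, eye and hair follicle, stood at 127, 132, 36.6 and 39.0 in EMM replicates 1 to 4 and at 6.68 to 12.6 in SOM. Its high EMM libraries were replicates 1 and 2, whereas those of Lmx1a were replicates 2 and 3.

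Lhx8, the partner of Lhx6 in the jaw and palate, had no reads in EMM and 77 in SOM. Lhx8 was thus at least 15.7-fold higher in SOM, taking 3 reads as the floor for the EMM group as a whole. Isl2, a factor of motor and sensory neurons, had 116 reads in SOM against 2, a SOM to EMM ratio of 35.4 (9.59 to 296, 95% counting interval). Isl1, which did not pass the filter, had 77 reads in SOM against 1, a ratio of 47.1 (8.20 to 1882). The LIM homeodomain genes seen in SOM and nearly absent from EMM were thus Lhx8, Isl1 and Isl2, all at low levels.

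Most partners of LIM homeodomain proteins differed by small amounts, with Lmo1 and Lmo3 as the exceptions. All 10 cofactor genes were tested. SOM had the higher level for 6 and EMM for 2, while 2 missed the threshold, so that 8 of 10 were called, against 72.1% of all genes. Their median difference was 0.35, against 0.01 over all genes. Ldb1, the shared scaffold, stood at 4737 ± 160.1 in EMM and 6905 ± 331 in SOM, a difference of 0.54 (SE 0.05). Ldb2, its paralog, did not pass, at 1439 ± 25.8 and 1441 ± 131 (limma adjusted p = 0.970). The stabilizing genes Ssbp3, Ssbp4 and Ssbp2 were higher in SOM by 0.47, 0.39 and 0.31 on the log2 scale. Rlim, which encodes a ubiquitin ligase that marks LDB1 for breakdown, was higher in EMM (-0.30, SE 0.07, limma adjusted p = 0.00149).

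The LMO competitors split. Lmo3 stood at 15.1 ± 6.71 in EMM and 88.1 ± 10.5 in SOM, and Lmo1 at 12.2 ± 2.08 and 32.0 ± 5.11, with differences of 2.56 (SE 0.27) and 1.33 (SE 0.23). Lmo2, a cofactor of blood and endothelial cells, was higher in EMM by a small amount (-0.38, SE 0.11, limma adjusted p = 0.00660), with its highest value, 570 normalized counts, in EMM replicate 3. Lmo4, the most abundant of the 4 LMO genes, did not pass, at 1720 ± 178 and 1741 ± 102 (limma adjusted p = 0.794).

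**Figure D4:**
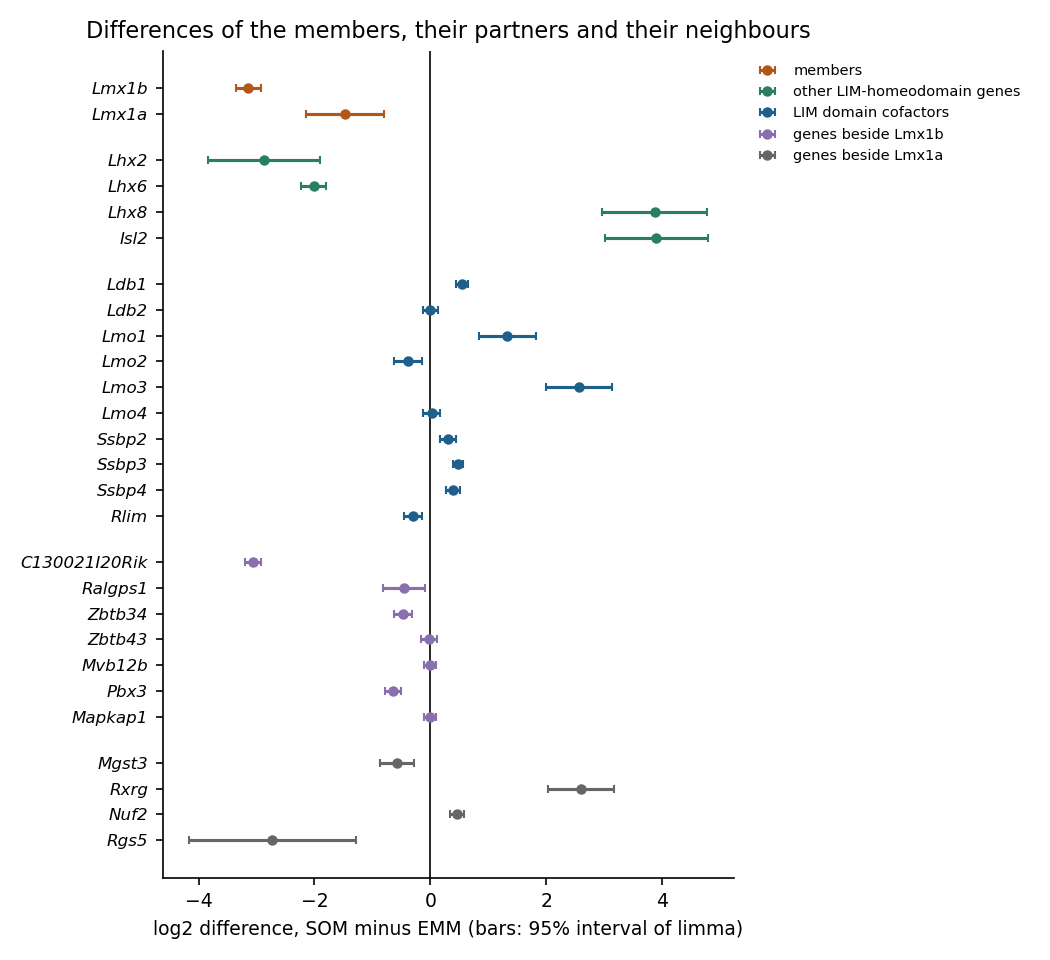
Log2 differences, SOM minus EMM, with 95% intervals from limma, for Lmx1b and Lmx1a, the tested LIM homeodomain genes, their cofactors and genes beside each member. Points left of 0 are higher in EMM. Lmx1b and C130021I20Rik lie near -3, and the other genes beside Lmx1b lie between -0.65 and 0.

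Of the 6 nearest protein-coding genes around Lmx1b, none came close to its difference. Pbx3, a homeobox cofactor gene 531 kb away, was higher in EMM (-0.64, SE 0.07, limma adjusted p = 2.10e-07), as were Zbtb34 (-0.47) and Ralgps1 (-0.45). The Ralgps1 call was lost with DESeq2 (adjusted p = 0.0719), when any of EMM replicates 3 and 4 or SOM replicates 1 and 4 was left out, and when EMM replicates 2 and 3 were left out together. Zbtb43, Mvb12b and Mapkap1 did not pass, with differences between -0.02 and 0.

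Around Lmx1a the neighbours went both ways. Rxrg, a retinoid X receptor gene 49.6 kb upstream, was at 12 ± 4.05 in EMM and 79.7 ± 23.4 in SOM, a difference of 2.60 (SE 0.27, limma adjusted p = 2.71e-07), opposite to Lmx1a. The kinetochore gene Nuf2 (0.46) was also higher in SOM. Mgst3 (-0.57) and the pericyte gene Rgs5 (-2.73) were higher in EMM, Rgs5 lying 1807 kb away, and Lrrc52 had no reads.

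Among homeobox genes, Lmx1b stood second toward EMM. Of 212 genes listed, 211 were matched and 86 tested, with 25 higher in EMM and 48 in SOM, against 36.1% and 36% of all genes. Of the 86, 74 reached 10 normalized counts in both regions. With no filter more genes were tested, and 39 homeobox genes were higher in EMM. The share of all genes called without a filter is not given here, so this count cannot be set against it. Only Nkx1-2 had a larger difference toward EMM (-3.45), from 19.2 ± 3.41 against 0.968 ± 0.814 normalized counts, a fitted value for a gene with 5 reads in SOM that passed the filter through EMM alone. Nkx6-1 (-3.09), Lhx2 (-2.87), Msx1 (-2.22), Msx2 (-2.05), Lhx6 (-2.02), Mkx (-1.83) and Pou2f2 (-1.50) came next, and Lmx1a stood at place 10. In the other direction, the craniofacial genes Dlx5 (3.15) and Alx1 (3.01), which encode factors of the jaw and the frontonasal skull, were higher in SOM.

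The homeobox genes most like Lmx1b over the 8 libraries were Nkx6-1, Msx1, Nkx1-2, Msx2 and Lhx6, at distances of 0.32 to 0.58 and r from 0.959 to 0.995. For Lmx1a the nearest homeobox genes were Zeb1, Mkx, Pou2f2, Msx2 and Satb1, at distances of 0.44 to 0.54 and r from 0.825 to 0.867. Over all genes, those nearest to Lmx1b after C130021I20Rik were the adrenergic receptor gene Adra2a, Zfpm2, the smooth muscle gene Tagln, the pyrophosphate-generating enzyme gene Enpp1, Dbc1, Zic1 and the channel gene Trpv2, at distances of 0.13 to 0.17. Adra2a stood at 2067 ± 24.4 in EMM and 242 ± 32.2 in SOM, and the cofactor gene Zfpm2 at 1326 ± 129 and 142 ± 28.0. Zic1, a zinc finger gene of the dorsal head, stood at 10764 ± 358 and 1340 ± 148.

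Genes known to act upstream of Lmx1 genes in limb and brain were mostly near 0. Of 12 listed, 3 passed the filter. En1, which keeps Lmx1b out of the ventral limb, stood at 657 ± 72.2 in EMM and 2741 ± 263 in SOM, a difference of 2.06 (SE 0.08, limma adjusted p = 8.45e-11), opposite to Lmx1b. Bmp4 was higher in EMM, at 2376 ± 88.8 against 1057 ± 116, and Bmp7 in SOM, at 1475 ± 44.1 against 1169 ± 48. Wnt7a, the dorsal limb signal upstream of Lmx1b, ran from 0 to 9.41 in EMM and from 1.26 to 10.7 in SOM. Wnt1 had no reads in EMM, and Pax2 and Pax5 were at 0 in all libraries.

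Genes linked to LMX1B in limb, kidney and eye were found on both sides. Of 14 listed, 11 passed, with 6 higher in EMM, 2 in SOM and 3 not passing, against 36.1% and 36% of all genes called in each direction. The list median was -1.17, against 0.01 over all genes, and 9 of the 11 reached 10 normalized counts in both regions. Lum, which encodes the matrix proteoglycan lumican, stood at 20787 ± 1903 in EMM and 8543 ± 324 in SOM. Foxc1, a forkhead gene of head and periocular mesenchyme, was higher in EMM by 1.71 on the log2 scale. Matn4, which encodes a cartilage matrix protein, went the other way, at 224 ± 93.9 in EMM and 1471 ± 750.2 in SOM. Col4a4 passed the filter through EMM alone, and with any 1 of the SOM libraries left out, 1 gene of the list was higher in SOM.

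Most of the osteoblast commitment genes tested were higher in SOM, where Lmx1b was low. Of 10 listed, 8 passed, with 7 higher in SOM and 1 in EMM, against 36% and 36.1% of all genes. Of the 8, 6 reached 10 normalized counts in both regions, while Ibsp and Phex passed the filter through SOM alone and had to differ. The list median was 2.97, against 0.01 over all genes. Sp7, required for osteoblasts, stood at 75 ± 8.19 in EMM and 537 ± 138 in SOM, and Dlx6 at 9.23 ± 3.66 and 369 ± 52.8.

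The mesenchyme label held in both regions. Prrx1, a defining head mesenchyme gene, stood at 12005 to 13492 in EMM and 13407 to 14577 in SOM, and the summed level of 9 mesenchyme markers was 840996 to 976617 in EMM and 316636 to 373697 in SOM, most of it collagen. Among brain roof plate and choroid plexus markers, a site of Lmx1a expression, only Gdf7 passed the filter of 8 listed. Gdf7, a BMP family ligand of the roof plate, stood at 122 ± 14.7 in EMM and 5.98 ± 1.73 in SOM, and passed the filter through EMM alone. The summed level of the 8 was 141 to 179 in EMM and 10.1 to 19.4 in SOM. Of the defining members, Wnt3a ran from 0 to 7.23 in EMM, and Ttr, the choroid plexus gene, from 9.04 to 30.3, highest in EMM replicate 3.

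Of 10 midbrain dopamine and hindbrain serotonin markers, 5 passed the filter, with 2 higher in EMM, 1 in SOM and 2, Nr4a2 and Slc6a4, not called. Among all genes tested, 36.1% were called higher in EMM and 36% in SOM. Ferd3l, a bHLH gene of the midbrain floor, and the dopamine transporter gene Slc6a3 were higher in EMM. Ferd3l stood at 100.2 ± 16 against 11.9 ± 1.46, and Slc6a3 at 28.3 ± 5.36 against 4.02 ± 2.97. Pitx3 was higher in SOM, with 142 reads there against 1, a ratio of 86.8 (15.3 to 3451, 95% counting interval). Slc6a3 passed the filter through EMM alone and Pitx3 through SOM alone, so both had to differ. Foxa2 was at 0 in all libraries. The summed level of the list overlapped between the regions, at 372 to 477 in EMM and 288 to 495 in SOM. Most of that sum was Nr4a2, at 224 to 267 in EMM and 213 to 413 in SOM.

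The 10 neural markers summed to 759 to 1220 in EMM and 2483 to 2681 in SOM, led by Tubb3 and Stmn2, both higher in SOM, while the neuronal gene Elavl3 was higher in EMM, at 20.8 ± 10.6 against 3.54 ± 2.73, having passed the filter through EMM alone. The summed neural level was highest in EMM replicate 2 and lowest in EMM replicate 3, unlike Lmx1a. Inner ear markers summed to 13.5 to 28.6 in EMM and 6.01 to 16.4 in SOM, and Oc90, the defining one, was at 0 in 3 EMM libraries. Surface ectoderm markers summed to 768 to 1070 in EMM, led by Krt8 and Cdh1, and 262 to 488 in SOM. Of 10 listed, 8 passed the filter, with Krt8 and Cdh1 higher in EMM, 0 higher in SOM and 6 not called. Among all genes tested, 36.1% were called higher in EMM and 36% in SOM. The list median was 0.50, toward SOM, against 0.01 over all genes, so the higher EMM sum was that of Krt8 and Cdh1. The basal keratin gene Krt5 ran from 3.07 to 192 in EMM, highest in replicate 2, and from 43.4 to 140 in SOM. The part of brain, ear or ectoderm cells in the Lmx1a and Lmx1b values was not tested.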

How the data were processed

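RNA-seq of 8 pools (4 EMM, 4 SOM) was used. The submitters' processing notes name bcl2fastq, STAR, DESeq2 and build mm10. The annotation, read counter and strand setting were not given in the sources used here. In the deposited table of 23420 genes, the library columns hold the signal as normalized counts, per the file headers. The authors also deposited a log2 fold change, its standard error and Wald score, and a p-value with its adjusted form for each gene.

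Every value in a library column was a whole multiple (within 1 ppm) of its smallest value above 0, in 100% of cases, so reads were recovered by division. Genes with at least 10 normalized counts in at least 4 libraries were kept (14249), and 4477 genes were at 0 throughout. The fit used limma 3.58.1 (R 4.3.3; trend, robust, no covariate) on log2(normalized count + 1). SciPy 1.17.1 gave exact permutation tests. Alternatives used edgeR 4.0.16, DESeq2 1.42.0 and limma-voom on recovered reads. With the recovered reads, edgeR called 5058 genes higher in EMM and 5252 in SOM. The fit was tested on simulated data. Exon lengths and coordinates came from GENCODE M21, which is not known to be the authors' annotation, and sequence from RefSeq. Intervals and floors (95%, 3 reads) cover counting error only.

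Members and lists were chosen with earlier results of these data known. Named genes were the 2 members, the LIM homeodomain and cofactor lists, 3 genes per direction with the lowest adjusted p from each other list, the 8 genes and 5 homeobox genes nearest to each member, and 3 protein-coding genes on each side plus any gene overlapping or starting within 5 kb. Other genes given with values were chosen after their values were seen. Some genes that this rule names are not reported here. Replicates of a group differed by more than counting error (chi-square per gene 3.57 to 18.1).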

Additional observations from a re-analysis of the deposited data

Results flagged for a closer look

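Within groups of 4 libraries, 6 of 155 groups of named genes had a library set apart from the other 3 by a gap that took up most of the group's range, and chance flags about 1 in 20. Neither Lmx1a nor Lmx1b was among them. Among their cofactors, Ldb1 stood at 7399 normalized counts in SOM replicate 3, against 6689 to 6780 in the others, and Ssbp2 at 1157 in EMM replicate 2, against 1064 to 1077. Zic1 stood at 11298 in EMM replicate 3 against 10547 to 10640, Satb1 at 587 in EMM replicate 2 against 502 to 510.2, Slc6a3 at 36.4 in EMM replicate 4 against 25.3 to 26.1, and Ferd3l at 14.0 in SOM replicate 4 against 10.9 to 11.3.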

How the results depend on the processing

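Lmx1b kept its direction and call in all 19 alternatives, and Lmx1a in 18, with differences between -1.69 and -0.95. The exception was the red blood cell covariate (-0.17). The Lmx1b to Lmx1a ratio kept its sign but not its call with each library left out, at -1.94 to -1.47 (exact permutation p = 0.0571, the smallest that 4 against 3 allows), and at -2.17 without EMM replicates 2 and 3 together. The labels do not say whether same-numbered EMM and SOM libraries came from the same embryos. Deviations of same-numbered libraries correlated at 0.13, 0.01, 0.04 and -0.02. Low values can also arise where other differences between pools outweigh a pairing, so they do not decide it. With a replicate block the ratio was -1.67 (exact p = 0.125, the smallest for 4 pairs), 5146 genes were higher in EMM and 5103 in SOM, and no call of Lmx1a or Lmx1b changed. Of the other LIM homeodomain genes, the count higher in EMM was 1 with a filter at 50 and without EMM replicates 2 and 3 together, and the count higher in SOM was 0 with a filter at 50 and 0 to 2 with a library left out, since fewer genes were then tested. With no filter, 3 upstream genes and 39 homeobox genes were higher in EMM, among more genes tested. These 2 counts stand without the share of all genes called under that fit. The count of LMX1B-linked genes higher in SOM was 1 to 2 with a library left out. Of 81 other named genes, 78 kept every call, and Otoa and Ralgps1 were among those that did not. With 62 reads in the shallowest SOM library, depth limits Lmx1a more than Lmx1b.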

Other observations

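The remaining LIM homeodomain genes were at the edge of detection. Lhx9 had 16 EMM reads against 2 SOM reads, an EMM to SOM ratio of 13.1 (3.08 to 117, 95% counting interval). Lhx5 had 2 and 3 reads, Lhx3 0 and 2, and Lhx1 and Lhx4 had 1 read each in EMM and none in SOM.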
